A study of Mus musculus with 8 samples.

Results

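The IL-6 and IL-12 cytokine families were followed through 10 genes, Il6, Lif, Osm, Il6ra, Il6st, Il12a, Il23a, Il27, Il12b and Ebi3, in J774A.1 mouse macrophages given LPS alone or LPS with UDCA. The genes were taken by symbol from the 55487 genes in the deposited table, each symbol matched 1 identifier, and 8 of the 10 had the mean of at least 1 TPM needed for the fit across 11796 genes. They were chosen by family membership after the TPM and log2 fold changes of this same comparison were known, so their levels and differences are given as a description. Where thresholds, intervals or counts of calls appear for these genes, they describe values that were known when the genes were chosen and are no independent evidence. J774A.1 is a line established from a tumour of a BALB/c mouse. LPS (1 μg/mL), a component of the outer membrane of Gram-negative bacteria, was given to all 8 samples, and UDCA (ursodeoxycholic acid, 1 mM), a secondary bile acid, was added to 4 of them, with RNA collected after 24 h. Cells without LPS were not analysed here, so each difference is that of adding UDCA to LPS. The table gives TPM, the reads of a gene divided by its length and scaled to a common total per library, which allows levels of different genes to be compared, and errors are the SD over the 4 libraries of a group because read numbers are not kept in TPM. The labels do not say that the libraries came from separate cultures, so p-values measure only the spread between these samples, which may be technical.

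Cytokines of the IL-6 family signal through the shared receptor chain gp130, encoded by Il6st, which pairs with a chain particular to each ligand and activates JAK kinases and STAT3. Cytokines of the IL-12 family are made of 2 chains, a four-helix subunit related to IL-6 and a subunit related to the soluble IL-6 receptor: p35 (Il12a) with p40 (Il12b) forms IL-12, p19 (Il23a) with p40 forms IL-23, and p28 (Il27) with EBI3 forms IL-27. Macrophages make several of these proteins after Toll-like receptor signals, with IL-12 and IL-23 directing T helper cell responses.

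Macrophage identity was checked first. Of 11 macrophage markers, 10 were at 1 TPM or more in every library, among them Ptprc, Cd14, Tlr4 and Spi1, while Mertk was listed at 0 in all 8. Markers of epithelial, fibroblast, endothelial, T, B, neutrophil and dendritic cells (31 genes) reached at most 1.43 TPM in any library, 13 of them were listed at 0 in all libraries, and their summed level was 1.69 to 2.54 TPM with LPS and 1.27 to 1.34 TPM with LPS + UDCA. The summed level of the macrophage markers was 4244 to 4476 TPM with LPS and 2087 to 2343 TPM with LPS + UDCA. Of these markers 10 were tested by limma. Adgre1 and Fcgr1 (2 of the 10) were called higher with UDCA, against 8.71% of all genes tested. Cd68, Csf1r, Itgam and Lyz2 (4 of the 10) were called lower, against 8.44%. The part of this shift in the values below was not tested. All libraries are of the J774A.1 line, and bulk RNA does not show whether all or only some of its cells changed. Across genes, libraries of one group correlated by 0.974 to 0.982 and libraries of different groups by 0.905 to 0.919.

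The family did not move as a block. Il6 and Il23a were higher with LPS + UDCA, 2.52 and 8.07 times by mean TPM, and Il6st was 1.99 times as high, whereas Lif, Il27 and Osm were lower and Ebi3 was near its LPS level. Of the 8 genes tested, 2 passed both thresholds used for calls in either direction, against 17.1% of all genes tested. These were Il6 and Il23a, which passed both a fold change of at least 2 on log2(TPM + 1) and an FDR under 0.05 in the direction of higher, where 8.71% of all genes tested did, and 0 passed both in the direction of lower, where 8.44% did. At the FDR alone, 3 were higher and 4 lower (40.2% and 32.3% of all genes), and the same counts held at an unadjusted p under 0.05 from limma. In 6 of the 8 the groups were fully separated, against 66.8% of all genes tested. The 4 LPS + UDCA libraries lay wholly above the 4 LPS libraries in 3 genes and wholly below in 3 (37.0% and 29.9% of all genes tested), and overlapped them in 2. The median log2 fold change over the 8 genes was -0.21, against 0.082 over all genes tested. The median SD between replicates was 0.12 on this scale for the 8 genes and for all genes tested.

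**Figure D1:**
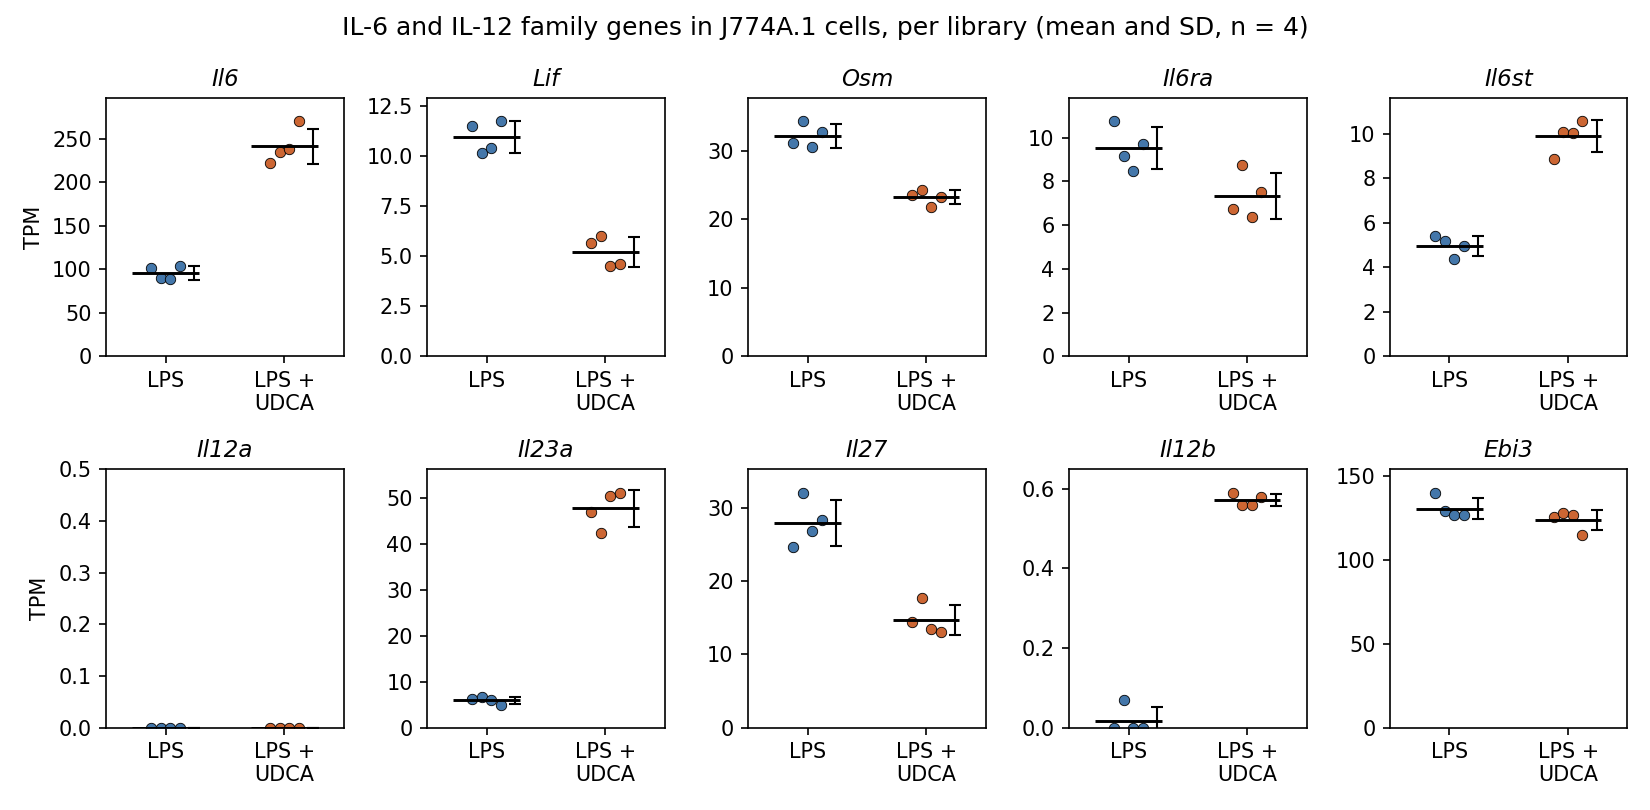
TPM (vertical axes, each from 0 with its own scale) of the 10 family genes in the 4 LPS and 4 LPS + UDCA libraries; points are libraries, lines are means and bars are SD. The LPS + UDCA points of Il6, Il6st, Il23a and Il12b lie above all LPS points, those of Lif, Osm and Il27 lie below, and Il12a is at 0 throughout.

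By mean TPM the order with LPS was Ebi3, Il6, Osm, Il27, Lif, Il6ra, Il23a, Il6st, Il12b and Il12a. Neighbours overlapped between Osm and Il27, between Lif and Il6ra, between Il23a and Il6st, and between Il12b and Il12a. With LPS + UDCA the order was Il6, Ebi3, Il23a, Osm, Il27, Il6st, Il6ra, Lif, Il12b and Il12a, and no neighbours overlapped. Il6 and Ebi3 thus exchanged the leading place, Il23a was among the lowest of the detected genes with LPS and behind only Il6 and Ebi3 with LPS + UDCA, and Lif moved down the order.

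The upstream sequences of 4 genes that took different courses (Il6 and Il6st higher, Lif lower, Ebi3 with overlapping groups) are shown as the 250 bases before the RefSeq transcription start, 5′ to 3′ on the strand of the gene. Capitals mark matches to an NF-κB consensus (κB), to the C/EBP motif TTNNGNAA or to the AP-1 motif TGANTCA, searched on both strands.
Il6 (chr5:30012864-30013113): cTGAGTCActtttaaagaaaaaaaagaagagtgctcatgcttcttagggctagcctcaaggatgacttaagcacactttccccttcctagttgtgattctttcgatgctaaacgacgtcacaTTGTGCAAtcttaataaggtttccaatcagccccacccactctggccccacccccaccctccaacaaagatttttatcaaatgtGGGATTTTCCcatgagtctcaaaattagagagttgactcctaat
Il6st (chr13:112463820-112464069): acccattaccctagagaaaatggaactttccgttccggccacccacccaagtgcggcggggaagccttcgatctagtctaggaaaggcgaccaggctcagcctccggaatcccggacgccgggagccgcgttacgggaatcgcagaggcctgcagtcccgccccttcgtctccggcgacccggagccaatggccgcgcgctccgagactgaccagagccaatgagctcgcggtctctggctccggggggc
Lif (chr11:4257318-4257567): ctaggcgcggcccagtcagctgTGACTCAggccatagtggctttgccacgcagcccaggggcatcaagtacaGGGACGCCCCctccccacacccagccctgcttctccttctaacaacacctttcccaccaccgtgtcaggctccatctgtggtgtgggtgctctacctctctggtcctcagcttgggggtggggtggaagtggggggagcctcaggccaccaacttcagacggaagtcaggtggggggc
Ebi3 (chr17:55952373-55952622): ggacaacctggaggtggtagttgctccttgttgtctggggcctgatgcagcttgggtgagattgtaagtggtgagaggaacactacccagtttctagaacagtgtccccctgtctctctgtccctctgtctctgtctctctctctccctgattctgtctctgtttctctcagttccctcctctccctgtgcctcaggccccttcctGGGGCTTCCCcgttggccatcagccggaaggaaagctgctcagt
The coordinates are on GRCm38.p6, all on the plus strand, no matches overlapped one another, and the RefSeq starts of Lif and Ebi3 lie a short distance from the GENCODE starts. In Il6 the capitals are an AP-1 match 249 to 243 bases, a C/EBP match 128 to 121 bases and a κB match 44 to 35 bases upstream of the start. Lif holds an AP-1 match at 228 to 222 and a κB match at 178 to 169 bases, and Ebi3 holds a κB match 44 to 35 bases upstream, the same distance as in Il6. Il6st has no match in this window. Of all 32851 RefSeq promoters of this length, 7.25% hold a κB match, 36.8% a C/EBP match and 6.75% an AP-1 match. Of the 7 family genes in the promoter table, Il6ra has 2 C/EBP matches, while Il12b and both starts of Il12a have none, and the STAT motif TTCNNNGAA (7.02% of promoters) and the IRF motif (2.98%) have no match in any of the 8 windows. A match is a run of letters and not a shown binding site. A κB match thus stood before a gene that was higher, a gene that was lower and a gene whose groups overlapped.

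Among the ligands of the IL-6 family, Il6 (ENSMUSG00000025746, chr5:30013114-30019981, plus strand of GRCm38), which encodes the inflammatory cytokine IL-6, was at 101.5, 89.6, 88.9 and 103.4 TPM in LPS replicates 1 to 4. In LPS + UDCA replicates 1 to 4 it was at 222.2, 234.6, 238.4 and 270.0 TPM. The lowest library with UDCA was 118.8 TPM above the highest without. The means were 95.8 ± 7.67 and 241 ± 20.3 TPM (SD, n = 4), a log2 fold change of 1.32 (standard error 0.072). Of the other genes tested, 503 had a higher log2 fold change. Leaving out each library in turn gave 1.27 to 1.36.

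Lif (ENSMUSG00000034394, chr11:4257557-4272514, plus strand), which encodes leukaemia inhibitory factor, was at 11.5, 10.1, 10.4 and 11.7 TPM with LPS. With LPS + UDCA it was at 5.68, 5.99, 4.52 and 4.62 TPM. The groups did not overlap, and the means of 10.9 ± 0.794 and 5.20 ± 0.742 TPM gave an LPS level 2.10 times that with LPS + UDCA. On log2(TPM + 1), where changes of weakly expressed genes look smaller than they are, the fold change was -0.95 (standard error 0.098), just short of the fold minimum. It was -1.02 after median-of-ratios scaling, -1.05 after quantile normalization, -1.07 with a pseudocount of 0.1 and -1.01 without LPS + UDCA replicate 2, and passed both thresholds in each of these. With a pseudocount of 5 it was -0.65.

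Osm (ENSMUSG00000058755, chr11:4236420-4241026, plus strand), which encodes oncostatin M, lies next to Lif with 16530 bases between the annotated genes. It was at 31.1, 34.3, 30.5 and 32.8 TPM with LPS and at 23.5, 24.2, 21.8 and 23.3 TPM with LPS + UDCA. Every library with UDCA was below every library without, and the log2 fold change was -0.45 (standard error 0.054). The means were 32.2 ± 1.71 and 23.2 ± 1.02 TPM, an LPS level 1.38 times that with LPS + UDCA, a smaller ratio than that of the neighbouring Lif.

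Of the receptor chains, Il6st (ENSMUSG00000021756, chr13:112464070-112510086, plus strand), encoding gp130, was at 5.39, 5.17, 4.35 and 4.94 TPM with LPS. It was at 8.84, 10.09, 10.03 and 10.54 TPM with LPS + UDCA, above all LPS libraries. The log2 fold change was 0.87 (standard error 0.083), under the fold minimum on this scale although the means differed 1.99 times. It was 0.98 with a pseudocount of 0.1 and 0.58 with a pseudocount of 5. Il6ra (ENSMUSG00000027947, chr3:89864059-89913196, minus strand), encoding the chain that binds IL-6, was at 10.7, 9.16, 8.47 and 9.69 TPM with LPS and at 6.72, 8.76, 6.39 and 7.50 TPM with LPS + UDCA. Its groups overlapped, since LPS + UDCA replicate 2 was above LPS replicate 3, and the log2 fold change was -0.34 (standard error 0.10). The antisense gene Gm42809, which overlaps Il6ra by 281 bases, was at 0.4 TPM or less.

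Within each library the ratio of Il6ra to Il6st was 1.99, 1.77, 1.95 and 1.96 with LPS and 0.760, 0.868, 0.637 and 0.712 with LPS + UDCA. The binding chain was thus the more abundant transcript in all 4 LPS libraries and gp130 in all 4 LPS + UDCA libraries. The ratio of Il6 to Il6st was 19.4 ± 1.63 with LPS and 24.4 ± 1.116 with LPS + UDCA, and the groups did not overlap.

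**Figure D2:**
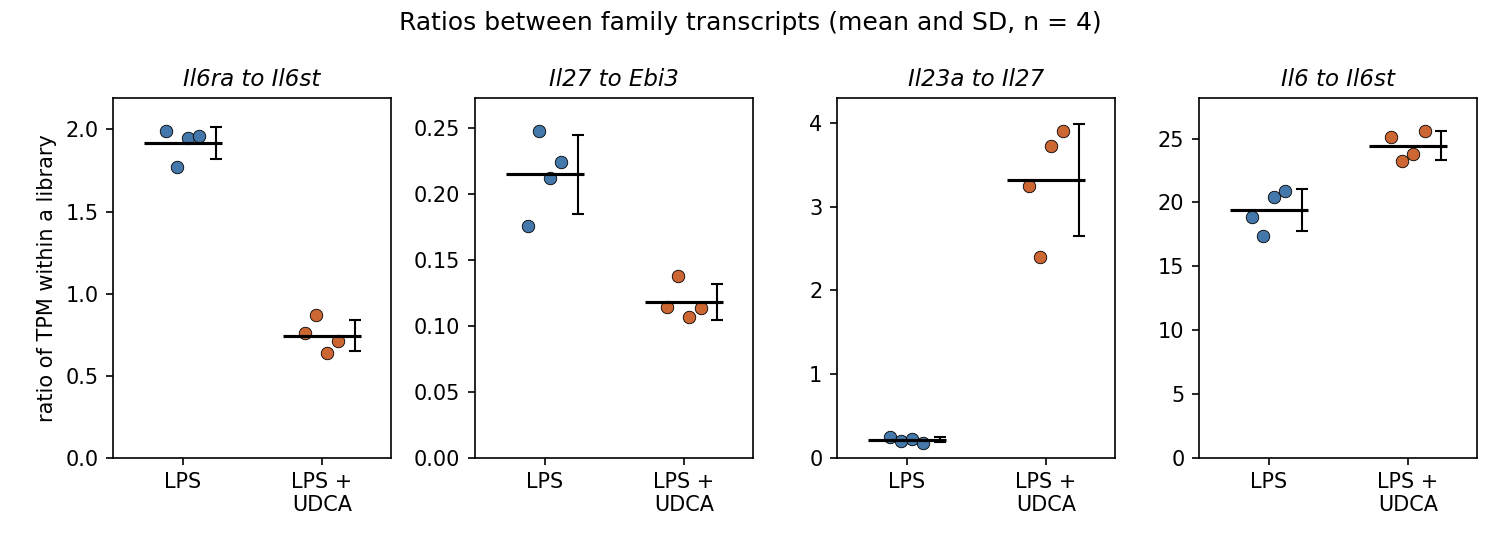
Ratio of TPM of a pair of family genes within each library (vertical axes from 0, each with its own scale); points are libraries, lines are means and bars are SD, with 4 libraries per group. Il6ra to Il6st and Il27 to Ebi3 are lower with LPS + UDCA, Il23a to Il27 and Il6 to Il6st are higher, and the groups overlap in none of the 4 panels.

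Among the four-helix subunits of the IL-12 family, Il23a (ENSMUSG00000025383, chr10:128296139-128298752, minus strand), encoding p19 of IL-23, was at 6.14, 6.56, 5.96 and 4.99 TPM with LPS. With LPS + UDCA it was at 46.9, 42.4, 50.5 and 51.1 TPM. The means were 5.91 ± 0.664 and 47.7 ± 4.01 TPM (SD, n = 4), a log2 fold change of 2.82 (standard error 0.088). Only 24 of the genes tested had a higher log2 fold change. Leaving out each library in turn gave 2.75 to 2.87. Its size depended on the pseudocount, with 2.99 at a pseudocount of 0.1 and 2.27 at a pseudocount of 5.

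Il27 (ENSMUSG00000044701, chr7:126589010-126594941, minus strand), encoding p28 of IL-27, was at 24.6, 32.1, 26.9 and 28.4 TPM with LPS. With LPS + UDCA it was at 14.4, 17.7, 13.6 and 13.1 TPM, below all LPS libraries. The means were 28.02 ± 3.14 and 14.7 ± 2.07 TPM and the log2 fold change was -0.89 (standard error 0.11), under the fold minimum. Il27 shares 103 bases with Apobr on the opposite strand, which was at 47.9 to 50.5 TPM with LPS and 40.4 to 44.3 TPM with LPS + UDCA. The counting was not stated to use strand, so reads there cannot be assigned to one gene with certainty. Il12a (ENSMUSG00000027776, chr3:68690644-68698547, plus strand), encoding p35 of IL-12, was listed at 0 in all 8 libraries.

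Of the receptor-like subunits, Il12b (ENSMUSG00000004296, chr11:44400063-44414033, plus strand), encoding p40, was listed at 0 in LPS replicates 1, 3 and 4 and at 0.07 TPM in replicate 2. It was at 0.59, 0.56, 0.56 and 0.58 TPM with LPS + UDCA. Its level was above that of the LPS libraries in all 4 but under the 1 TPM needed for the fit. Ebi3 (ENSMUSG00000003206, chr17:55952640-55957022, plus strand), the partner of p28 in IL-27, was at 140.2, 129.4, 126.8 and 126.8 TPM with LPS and at 126.0, 128.2, 126.7 and 115.3 TPM with LPS + UDCA. The groups overlapped and the log2 fold change of -0.076 (standard error 0.048) had a 95% interval of -0.19 to 0.033. The sign was not stable to the scaling, with 0.0017 after quantile normalization and -0.15, past the FDR, after median-of-ratios scaling. The antisense gene Gm16712 shares 2252 bases with Ebi3 and was at 7.26 to 15.7 TPM with LPS and 3.46 to 6.77 TPM with LPS + UDCA, and 19.0% of the 31-base words of Ebi3 transcripts occur in another gene, so its values are less certain than those of Il6 and Il23a, for which this share was 0 and 0.446%.

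Of the subunits that pair in a cytokine, Il27 and Ebi3 did not keep the same proportion. For Il23a and Il12b the groups cannot be compared. The ratio of Il27 to Ebi3 was 0.176, 0.248, 0.212 and 0.224 with LPS and 0.115, 0.138, 0.107 and 0.113 with LPS + UDCA, so Ebi3 was the more abundant in every library. The ratio of Il23a to Il12b was 79.4, 75.7, 90.2 and 88.1 with LPS + UDCA. With LPS it could be computed only in replicate 2, at 93.7 with Il12b at 0.07 TPM. The p19 transcript was therefore far more abundant than that of p40, its partner, wherever both were above 0. Il23a was below Il27 in every LPS library, with ratios of 0.175 to 0.249, and above it in every LPS + UDCA library, with ratios of 2.40 to 3.91.

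**Figure D3:**
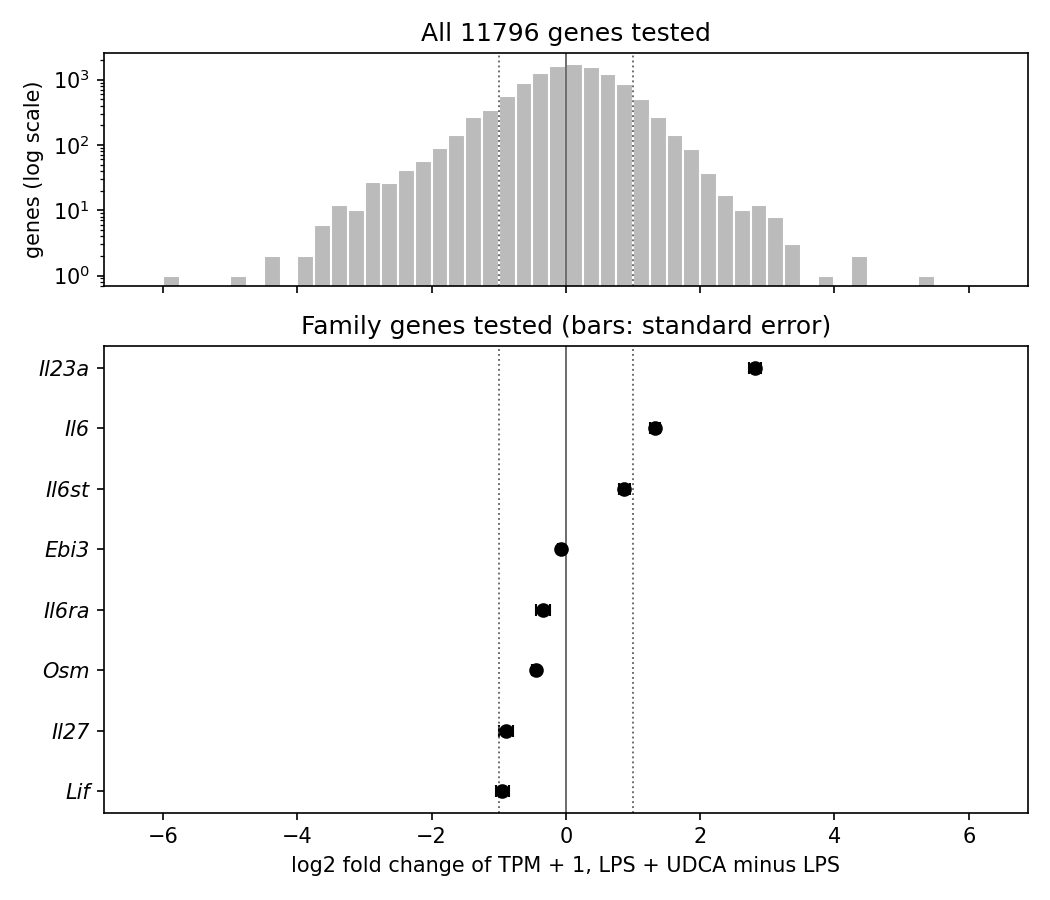
Upper panel: number of genes (log scale) by log2 fold change of TPM + 1, LPS + UDCA minus LPS, for all 11796 genes tested. Lower panel: the same quantity for the 8 family genes tested, with bars for the standard error and dotted lines at the fold minimum; only Il6 and Il23a lie beyond the upper line, and Lif and Il27 lie just inside the lower line.

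The annotated 3′ ends of these genes were not used in their choice. ATTTA, the core of AU-rich elements that bear on mRNA stability, occurs 5 to 9 times in the 3′ UTR of Il6, Lif, Osm, Il6st, Il12a, Il23a, Il27 and Il12b and 1 time in those of Il6ra and Ebi3, whereas the median over 10245 genes was 1. At least 5 copies were present in 18.8% of genes. Per 1000 bases the counts were highest in Il27 at 17.5, Il6 at 14.1 and Il12a at 12.1, against a median of 1.20. The UTR of Il6st, with 9 copies in 5641 bases, came to 1.595 per 1000 bases. That of Lif, with 7 copies in 3180 bases, came to 2.20. As many per 1000 bases were present in 42.2% of genes for Il6st and in 31.1% for Lif. For Il6, Il27, Il23a and Osm these shares were 0.449%, 0.283%, 1.44% and 4.67%. Genes with many copies were found among those with higher values (Il6, Il23a, Il6st) and among those with lower values (Lif, Osm, Il27).

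The 3 genes nearest to Il6 in pattern, by root mean square difference of log2(TPM + 1) from the LPS mean over the 8 libraries, were Serinc1 (0.037), Rhot1 (0.040) and Hsp90b1 (0.054), out of 7071 genes of at least 10 TPM. Those nearest to Il23a were Neat1 (0.14), Mef2b (0.15) and Cox6a2 (0.20). Those nearest to Lif were Cenpb (0.063), Lrrc25 (0.069) and Pcdhgc3 (0.069). The closest neighbour of Il23a was farther away than any of the 3 nearest to Il6 or Lif. The measure includes the size of the change, so this distance is not a separate trait. Only 24 genes tested had a higher log2 fold change than Il23a, against 503 for Il6.

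The other genes of the pathway were taken from 8 lists of 69 genes, of which 54 were tested. These lists too were chosen with earlier results of these data known, so their counts and medians are a description and no independent evidence. By limma with Benjamini-Hochberg adjustment over all 11796 genes, 4 were called higher with UDCA and 8 lower, against 8.71% and 8.44% of all genes tested. At the FDR alone 23 were higher and 24 lower, against 40.2% and 32.3% of all genes tested. The median log2 fold change over the 54 was 0.052.

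None of the 6 other ligands of the IL-6 family listed was high enough to be tested. Il11, Cntf, Ctf1, Ctf2 and Clcf1 were at 1.30 TPM or less in every library and Il31 was listed at 0 in all. Of the 9 other receptor chains, Lifr and Osmr, the partners of gp130 for the Lif and Osm proteins, were at 0.16 TPM or less, and Il23r and Il12rb2, the chains for IL-23 and IL-12, were at 0.05 TPM or less. Il27ra was at 0.20 TPM or less, Il11ra1 reached 2.15 TPM in 1 library, and Cntfr was listed at 0 in all. Values of Cntf and Il11ra1 are uncertain, since 78.4% and 57.7% of their 31-base words occur in another gene. The transcripts of Lif, Osm, Il23a and Il27 were thus measured in cells with little or no transcript of the specific receptor chains. Il12rb1, a chain shared by the IL-12 and IL-23 receptors, had means of 2.66 ± 0.508 and 1.75 ± 0.214 TPM (log2 fold change -0.41, limma adjusted p = 0.016), under the fold minimum. Il31ra was the most abundant of these chains, at 66.5 to 300.4 TPM with LPS alone and at 163.8 to 271.0 TPM when UDCA was added (log2 fold change 0.27 with a standard error of 0.40, limma adjusted p = 0.55). Its log2 fold change was -0.17 without LPS replicate 2 and 0.55 without LPS replicate 3.

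Both sheddases that release the soluble IL-6 receptor, Adam10 and Adam17, named after their values were seen, had log2 fold changes under the fold minimum, 0.84 and 0.20 (limma adjusted p = 3.3e-05 and 0.017). Among the kinases and STATs, Jak2, a kinase that gp130 uses, was called higher, from 4.34 ± 0.653 to 10.3 ± 0.781 TPM (log2 fold change 1.09, limma adjusted p = 9.7e-06). Of the 5 tested, 1 was called higher (8.71% of all genes), and 4 were higher at the FDR alone (40.2% of all genes). Stat3, the main transducer of gp130, and Stat4, which transduces IL-12, are named after their values were seen. Stat3 was at 37.5 ± 2.49 and 48.0 ± 3.49 TPM (log2 fold change 0.35, limma adjusted p = 0.0011), and Stat4 was listed at 0 in all libraries.

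Of the feedback inhibitors, Socs3, which binds gp130 and blocks JAK activity, had the lowest log2 fold change at -2.96 (standard error 0.11, limma adjusted p = 3.9e-08). It was at 302.7, 314.0, 299.2 and 309.6 TPM with LPS and at 40.4, 48.7, 34.8 and 31.9 TPM with LPS + UDCA. Every LPS + UDCA library was thus far below every LPS library. Pias1, encoding a SUMO ligase that restrains STAT activity, was called higher, from 10.2 ± 0.825 to 22.5 ± 1.02 TPM (log2 fold change 1.07, limma adjusted p = 8.7e-07). Of the 8 tested, 1 was called higher and 1 lower (8.71% and 8.44% of all genes), and 3 were higher and 3 lower at the FDR alone (40.2% and 32.3%).

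All 10 genes listed as STAT3 targets were tested, of which 4 were called lower (8.44% of all genes) and 9 were lower at the FDR alone (32.3% of all genes). The median log2 fold change was -0.83. Il1rn, encoding the IL-1 receptor antagonist, was at 1244 to 1299 TPM in the LPS libraries and fell to between 117 and 127 TPM in the LPS + UDCA libraries (log2 fold change -3.37, limma adjusted p = 2.8e-11). Il10, encoding the anti-inflammatory cytokine IL-10, fell from 76.7 ± 1.94 to 12.9 ± 1.51 TPM (log2 fold change -2.49, limma adjusted p = 1.4e-08). The others were Bcl2l1, encoding a survival factor, and Saa3, encoding an acute-phase protein, with log2 fold changes of -2.06 and -1.29, named here after their values were seen. Pim1, encoding a kinase and also named after its values were seen, was the 1 gene of the list that was higher at the FDR alone, with a log2 fold change of 0.26. These genes also answer to signals other than STAT3.

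**Figure D4:**
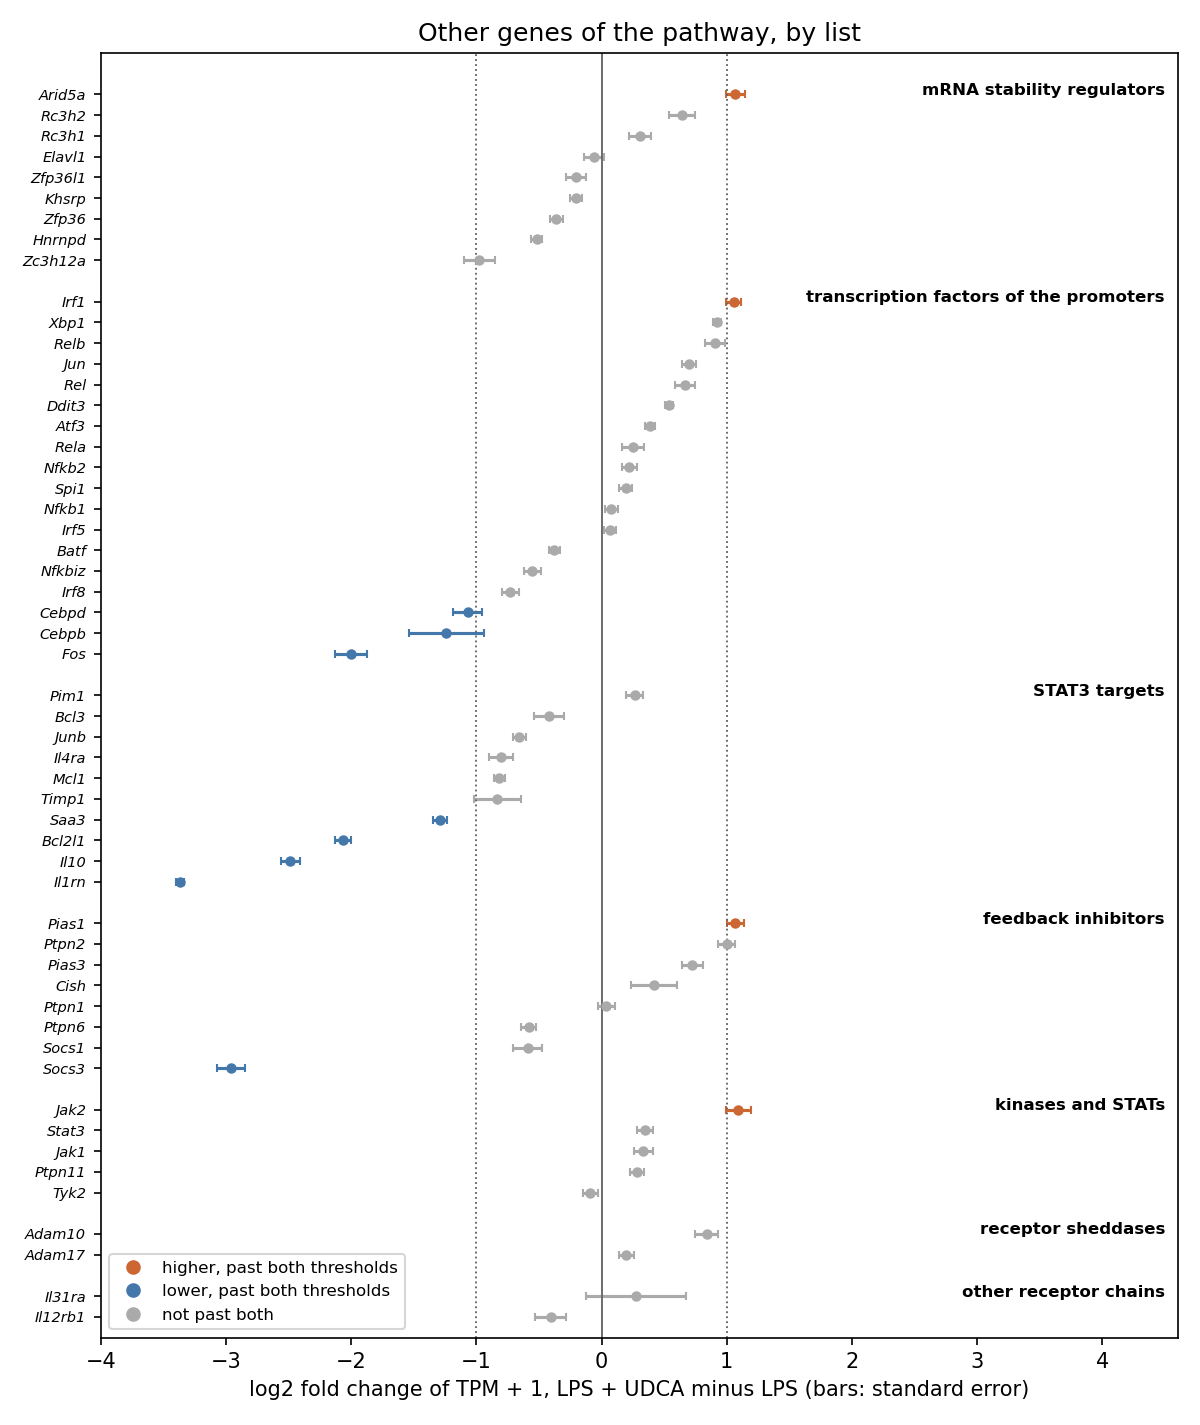
Log2 fold change of TPM + 1, LPS + UDCA minus LPS, of the 54 tested genes of the pathway lists, with bars for the standard error and dotted lines at the fold minimum in each direction. Orange marks the 4 genes called higher, blue the 8 called lower and grey the rest; 9 of the 10 STAT3 targets lie left of 0.

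Among 18 transcription factors with known roles at these promoters, 1 was called higher and 3 lower (8.71% and 8.44% of all genes), and 10 were higher and 6 lower at the FDR alone (40.2% and 32.3%). Irf1, a factor of interferon responses, was called higher, from 5.81 ± 0.400 to 13.1 ± 0.329 TPM (log2 fold change 1.05, limma adjusted p = 6.7e-07). Fos, a subunit of AP-1, fell from 23.6 ± 2.28 to 5.20 ± 1.16 TPM (log2 fold change -2.002, limma adjusted p = 9.3e-07). The AP-1 genes Jun and, from the STAT3 target list, Junb are named after their values were seen. Jun was higher and Junb lower, with log2 fold changes of 0.70 and -0.66 (limma adjusted p = 5.3e-06 and 3.2e-06). Both were under the fold minimum. Cebpb fell by 1.24 on the log2 scale (standard error 0.30, limma adjusted p = 0.0043), with uneven LPS libraries at 60.1 to 161 TPM against 35.1 to 55.0 TPM with LPS + UDCA. Cebpd, also of the C/EBP family and named after its values were seen, fell by 1.07. Its log2 fold change was -0.99 without LPS + UDCA replicate 4, short of the fold minimum. Of the 31-base words of Cebpb and Cebpd, 19.6% and 14.2% occur in another gene. The NF-κB genes Relb, Rel, Nfkb2 and Rela, named after their values were seen, had log2 fold changes of 0.90, 0.66, 0.22 and 0.25. All were under the fold minimum and past the FDR, and Nfkb1 was at 0.078 and not past it. Nfkbiz, of the same list and also named after its values were seen, was lower. Its log2 fold change was -0.55, under the fold minimum and past the FDR.

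Of 9 regulators of mRNA stability, Arid5a, whose protein stabilizes Il6 mRNA, was called higher, from 17.5 ± 2.02 to 37.6 ± 0.904 TPM (log2 fold change 1.07, limma adjusted p = 1.5e-06). Zc3h12a, encoding the ribonuclease Regnase-1 that degrades Il6 mRNA, was at 34.5 ± 1.66 and 17.3 ± 3.62 TPM. Its log2 fold change of -0.98 (limma adjusted p = 8.5e-05) was just under the fold minimum. It passed both thresholds after median-of-ratios scaling (-1.05), after quantile normalization (-1.02), with a pseudocount of 0.1 (-1.01), and without LPS replicate 4, LPS + UDCA replicate 1 or LPS + UDCA replicate 2. It is named after its values were seen, as are the rest of the list. Rc3h2 and Rc3h1 had log2 fold changes of 0.64 and 0.30. Hnrnpd, Zfp36, Zfp36l1 and Khsrp were at -0.52, -0.36, -0.20 and -0.20. These were past the FDR and under the fold minimum, and Elavl1, at -0.063, was not past the FDR. Of the 9, 3 were higher and 5 lower at the FDR alone (40.2% and 32.3% of all genes). The calls of Jak2, Pias1, Irf1 and Arid5a lay close to the fold minimum, and each was lost under at least 1 other scaling or with a pseudocount of 5.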

How the data were processed

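RNA was sequenced from J774A.1 cells, 4 libraries with LPS and 4 with LPS + UDCA, grouped by the treatment in the labels. The authors deposited TPM per gene with 1 column per library, a unit inferred from the column sums. These were 973190 to 977485 with LPS and 958918 to 962737 with LPS + UDCA, so the groups did not overlap. The submitters' processing notes name Bowtie 0.12.2, mm10 and GRCm38, and the counting program and its strand setting are not given in the sources used here. Read depth is unknown. All columns of per-sample values were used (0 left out).

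Genes averaging 1 TPM or more were analysed as log2(TPM + 1) in limma 3.58.1 (R 4.3.3), using lmFit, then eBayes with its trend option, and p-values were Benjamini-Hochberg adjusted over all 11796 genes. Calls needed both an FDR under 0.05 and a 2-fold change, the thresholds of the study's methods, with the fold taken here on log2(TPM + 1). The procedure was tested on simulated data. The family genes and the gene lists were chosen with earlier results of these data known. Named were all family genes, every other ligand and receptor chain, the 2 highest and 2 lowest called genes of each list, and the 3 genes nearest in pattern to Il6 and to the family genes with the highest and lowest log2 fold change. Further list genes were named after their values were seen and are marked so. Positions, overlaps, 3′ UTRs (ATTTA counted with overlaps) and shared 31-base words are from GENCODE M21 on GRCm38, and promoters from RefSeq on GRCm38.p6, where 7 of the 10 family genes matched. Scaling, filter, pseudocount, trend, replicate block, fold minimum and leaving out each library were varied. Tables and plots were made with pandas 2.3.3 and matplotlib 3.10.9 in Python 3.11.15. Of the genes first listed for the pathway, 2 are not reported here and were left out of the list counts.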

Additional observations from a re-analysis of the deposited data

Results flagged for a closer look

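Of 60 sets of 4 libraries examined, 8 held a library set apart from the others by Dixon's test at the 95% level. By chance about 1 in 20 (3 sets) would be, a rate that does not hold for values tied at 0. The flags of Il12b and Lifr with LPS and of Il23r in both groups were fixed by such ties. The 8 and the 3 therefore cannot be compared. Among the family genes, Ebi3 was at 115.3 TPM in LPS + UDCA replicate 4 and at 126.0 to 128.2 TPM in the other 3 libraries of that group. Il12b was at 0.07 TPM in LPS replicate 2 and listed at 0 in the other LPS libraries. Among the other genes of the pathway, Arid5a was at 20.49 TPM in LPS replicate 1 against 16.2 to 16.6 TPM in the others, still below all LPS + UDCA libraries (36.9 to 38.9 TPM). Il12rb1 was at 1.43 TPM in LPS + UDCA replicate 4 against 1.82 to 1.90 TPM. The remaining values were under 1 TPM. Cntf was at 0.26 TPM in LPS replicate 1 against 0.48 to 0.52 TPM, Il23r at 0.02 TPM in LPS replicate 3, and again at 0.05 TPM in LPS + UDCA replicate 1, with the others of each group at 0, and Lifr at 0.01 TPM in LPS replicate 1 with the others at 0. The causes were not tested.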

How the results depend on the processing

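Il6 and Il23a were called higher under every alternative run. The number of family genes called lower, 0, became 1 (Lif) after median-of-ratios scaling, after quantile normalization and with a pseudocount of 0.1, and 4 without the fold minimum. For the pathway lists, the 4 called higher became 1 after median-of-ratios scaling, 2 after quantile normalization, 0 with a pseudocount of 5 and 23 without the fold minimum, and the 8 called lower became 24 without the fold minimum. Over all genes, 1028 called higher and 995 lower became 857 and 1121 after median-of-ratios scaling, 874 and 1088 after quantile normalization, 357 and 532 with a pseudocount of 5 and 4741 and 3807 without the fold minimum, where a rule that asks less calls more by construction; the other causes were not tested. Leaving out each library in turn gave 2 family genes called higher each time and 0 to 1 lower (1 without LPS + UDCA replicate 2), 4 to 5 and 7 to 9 genes of the lists, and 971 to 1130 and 964 to 1031 of all genes. Whether the replicate numbers shared by the groups pair the libraries cannot be told from these values. Deviations of same-numbered libraries correlated by -0.0354 to 0.146 and those of others by -0.145 to 0.162. With the replicate block 1034 genes were called higher and 1000 lower, 2 and 0 of them family genes, and no call of a family or list gene changed. TPM keeps no depth, so the levels of Il12a and Il12b and of the low receptor chains carry no counting error.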
